A study of Mus musculus with 9 samples.

Results

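The genes of the Notch pathway described here were 10 of the 15384 genes in the deposited count table, namely the ligands Jag1 and Jag2, the receptors Notch1, Notch2 and Notch3, the receptor-modifying enzyme Lfng, the DNA-binding factor Rbpj, the coactivator Maml1 and the target genes Hes1 and Hey1. They were chosen by gene symbol, and all 10 were found. RNA-Seq was performed in MyC-CaP cells, a mouse prostate cancer line derived from a tumor in which a MYC transgene was driven by an androgen-responsive prostate promoter, so the cells are 1 line of 1 genotype. In every group the cells were first kept without serum and calcium. The 3 groups were time 0, 12 hours and 24 hours with 100 ng/mL recombinant mouse ASPN (asporin, a proteoglycan secreted by stromal fibroblasts), each with 3 libraries labeled as biological replicates, from cells plated in triplicate wells. In the labels, the libraries of time 0 are named as ASPN-treated as well, and they served here as the starting point. Cells cultured for 12 or 24 hours without ASPN were not analysed here, so ASPN and time in culture cannot be told apart in any comparison. The p-values measure the spread between the wells of the line.

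Notch receptors are transmembrane proteins that are activated when a ligand of the Jagged or Delta family on a neighboring cell pulls on them. Metalloproteases and γ-secretase then release the intracellular domain, which enters the nucleus, binds RBPJ together with a MAML coactivator and acetyltransferases, and switches on repressor genes of the Hes and Hey families. Without it RBPJ sits with corepressors at the same genes, and in the prostate the pathway is known for its part in the growth and differentiation of the epithelium.

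Library totals ranged from 41881191 to 52993821 counts. The spread between libraries of a time exceeded sampling noise, with a chi-square per degree of freedom of 3.41 to 17.5, so each was counted as 1 replicate. Levels are given as CPM, which are counts relative to the library total multiplied by its TMM factor, and errors as SD over 3 libraries. The labels describe the cells as epithelial-like. Of the 5 epithelial markers, Krt8 and Krt19 were clearly detected and Krt18 had 2 to 22 counts, whereas the defining genes Epcam and Cdh1 had 0 or 1 counts and 0 to 10 counts in a library. The epithelial markers summed to 104 to 132 CPM at time 0 and 162 to 188 CPM at 24 hours. Of the 3 prostate luminal markers, 2 exceeded 3 counts in a library, Hoxb13 among them. Their sum was 3058 to 3276 CPM at time 0 and 1877 to 1985 CPM at 24 hours. Hoxb13 alone went the other way, from 67.8 to 74.4 CPM at time 0 to 91.5 to 104 CPM at 24 hours. These differences were not tested. Fibroblast markers summed to 12.9 to 14.1 CPM at time 0 and 9.12 to 10.3 CPM at 24 hours, nearly all of it Pdgfra. The leukocyte and endothelial markers in the table summed to less than 1 CPM in every library.

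At 24 hours, Notch2, Jag1 and Lfng were expressed at 33.4% to 48.4% of their levels at time 0, and at 12 hours no tested Notch gene had changed by 1.5-fold. Hes1 was called higher at 24 hours from very low counts, and Hey1 was at or near 0 counts throughout. In such bulk samples, fewer expressing cells and less RNA per cell cannot be told apart. Genes with a change of 1.5-fold or more were called differentially expressed if the adjusted p did not exceed 0.05 (edgeR, quasi-likelihood, Benjamini-Hochberg over all tested genes). At 12 hours, 0 of the 8 tested Notch genes were called, against 1.60% of all 11410 tested genes, 4 of the 8 had an unadjusted p under 0.05, as had 21.4% of all tested genes, and DESeq2 and limma-voom also called 0. At 24 hours against time 0, 3 of 9 tested genes were called lower and 1 higher, where 28.8% of 11444 genes were called, 16.8% lower and 12.0% higher. The higher call was Hes1, which passed the filter on low counts in the least number of libraries, 3. These were time 0 replicate 2 and 24-hour replicates 2 and 3, so Hes1 was tested in part because it was high at 24 hours. At 24 against 12 hours, 3 of 8 were called lower and 0 higher, where 25.7% of 11394 genes were called and 15.3% were called lower. The libraries of the compared times did not overlap for 3 of 8, 6 of 9 and 5 of 8 Notch genes, whereas this held for 27.1%, 74.0% and 73.8% of all tested genes. The median log2 fold changes of the tested Notch genes were -0.06, -0.45 and -0.45 in the 3 comparisons, beside -0.005, -0.02 and 0.004 over all tested genes. The comparisons of 12 and 24 hours with time 0 share the time 0 libraries.

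**Figure D1:**
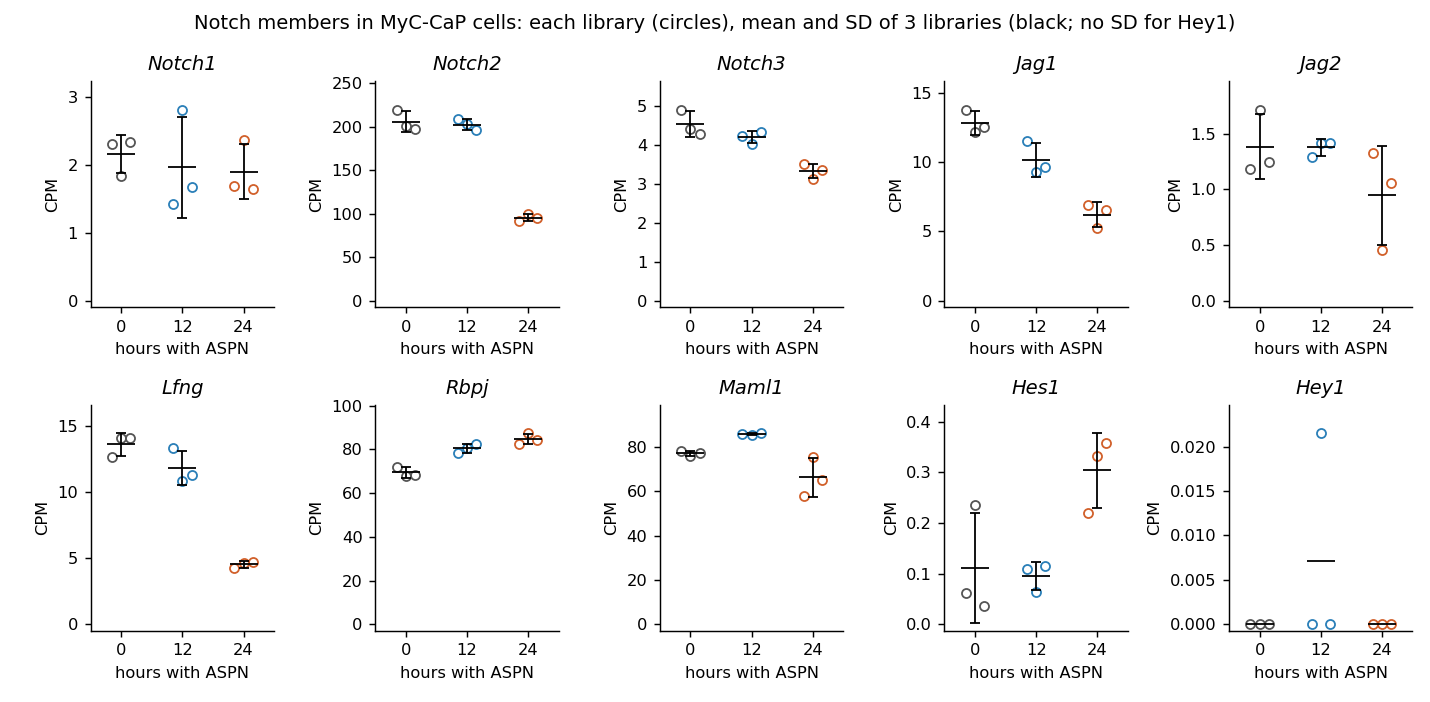
Level of each Notch gene (y axis, CPM) against hours with ASPN (x axis). Circles are libraries, and black bars are the mean and SD of 3 libraries, with the mean alone for Hey1. The 24-hour libraries of Notch2, Jag1 and Lfng lie below all libraries of the earlier times, and Hes1 and Hey1 lie near 0 on their expanded axes.

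The promoters of Lfng and Notch2 are shown because these genes had the lowest fold changes at 24 hours among the Notch genes and differed in whether the RBPJ core letters were present. Each is the 250 bases before the start of the gene in RefSeq (GRCm38.p6), both on the + strand, and this start lies a few bases downstream of the GENCODE start given below. Capitals mark the letters TGGGAA, the core bound by RBPJ, or their reverse complement.
Lfng, chr5:140607091-140607340: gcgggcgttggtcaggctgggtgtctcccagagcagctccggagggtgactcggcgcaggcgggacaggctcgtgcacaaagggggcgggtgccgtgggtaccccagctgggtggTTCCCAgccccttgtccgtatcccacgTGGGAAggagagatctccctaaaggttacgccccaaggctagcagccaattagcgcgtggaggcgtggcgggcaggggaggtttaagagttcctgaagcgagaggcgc
Notch2, chr3:98013288-98013537: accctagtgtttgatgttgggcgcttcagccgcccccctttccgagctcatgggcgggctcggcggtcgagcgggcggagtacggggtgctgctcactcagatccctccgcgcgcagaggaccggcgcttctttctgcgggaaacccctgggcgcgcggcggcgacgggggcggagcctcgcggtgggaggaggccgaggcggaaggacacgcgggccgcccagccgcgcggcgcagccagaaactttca
The Lfng window held 2 matches, at 135 to 130 bases upstream on the − strand and at 108 to 103 bases upstream on the + strand, and the Notch2 window held 0. The table had promoters for 8 of the 10 genes, without Hes1 and Hey1. The RBPJ core was present in the windows of Lfng and Rbpj and absent from those of the other 6, and 21.6% of 32851 promoters held it on either strand. The N-box, CACNAG on either strand, is recognized by repressors of the Hes family. It was found in the windows of Notch1, Notch2, Notch3 and Lfng, and in 36.7% of all promoters. In the Lfng window the matches of the 2 motifs did not overlap, and a match of letters describes the sequence and not binding.

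Jag1 encodes a ligand of the Jagged family (ENSMUSG00000027276.7, chr2:137081456-137116644, − strand). Its levels were 13.8, 12.2 and 12.5 CPM at time 0, 11.5, 9.29 and 9.64 CPM at 12 hours, and 6.89, 5.21 and 6.55 CPM at 24 hours. The 3 times did not overlap, and each time lay below the preceding time. At 12 hours the log2 fold change was -0.33 (SE 0.09, adjusted p = 0.026), a difference short of 1.5-fold. That adjusted p was 0.073 with all 9 libraries in one fit, and exceeded 0.05 in 4 of 6 fits that left out a library (0.051 to 0.16), namely time 0 replicate 1 or 3 or 12-hour replicate 2 or 3. At 24 hours it was -1.05 (SE 0.11, adjusted p = 1.7e-06), or 48.4% of time 0. Between 12 and 24 hours Jag1 fell by 0.69 on the log2 scale (SE 0.12, adjusted p = 1.6e-04). This call fell short of 1.5-fold after a correction for gene length and GC content (-0.58) and without 24-hour replicate 2 (-0.58).

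Jag2, the second Jagged ligand (ENSMUSG00000002799.6, chr12:112907819-112929776, − strand), was far lower, with 22 to 80 counts in a library. Its levels were 1.18, 1.71 and 1.25 CPM at time 0, 1.29, 1.42 and 1.42 CPM at 12 hours, and 1.32, 0.456 and 1.06 CPM at 24 hours. The times overlapped, and 24-hour replicate 2 was the lowest library while replicate 1 lay within the earlier range. The log2 fold change was 0.002 at 12 hours (SE 0.20, adjusted p = 1.00) and -0.56 at 24 hours (SE 0.33, adjusted p = 0.14), with a 95% interval from -1.26 to 0.15. Without 24-hour replicate 1 it would have been called lower (-0.86, adjusted p = 0.036, over a range of 0.036 to 0.49 when each library was left out), and with the length and GC correction the value was -0.057 (adjusted p = 0.89). The Delta ligands Dll3 and Dll4 had at most 1 count in a library, and Dll1 was not analysed here.

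Notch2 was the most highly expressed receptor of the 3 described here (ENSMUSG00000027878.11, chr3:98013527-98150361, + strand, promoter above). Its levels were 220, 201 and 197 CPM at time 0, 209, 203 and 196 CPM at 12 hours, and 91.6, 99.5 and 95.1 CPM at 24 hours. The first 2 times overlapped almost fully, and all 24-hour libraries lay far below them. The log2 fold change was -0.02 at 12 hours (SE 0.04, adjusted p = 0.84) and -1.11 at 24 hours (SE 0.05, adjusted p = 7.7e-10), or 46.3% of time 0. From 12 to 24 hours it was -1.07 (SE 0.04, adjusted p = 1.5e-10). After the length and GC correction the 24-hour values remained called but were smaller in size, at -0.69 against time 0 and -0.65 against 12 hours. Of the Notch2 exon length, 5.02% is shared with a gene model on the same strand.

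Notch3 (ENSMUSG00000038146.8, chr17:32120820-32166852, − strand) had low levels of 4.92, 4.41 and 4.29 CPM at time 0, 4.24, 4.04 and 4.34 CPM at 12 hours, and 3.51, 3.13 and 3.36 CPM at 24 hours. The 24-hour libraries lay below those of both earlier times, which overlapped. The log2 fold change was -0.11 at 12 hours (SE 0.11, adjusted p = 0.66) and -0.45 at 24 hours (SE 0.13, adjusted p = 0.0060), a difference past the adjusted p but short of 1.5-fold. From 12 to 24 hours it was -0.32 (SE 0.12, adjusted p = 0.028, but 0.056 with DESeq2 and 0.068 to 0.084 without 12-hour replicate 1 or 3 or 24-hour replicate 2). The direction turned with the length and GC correction, to 0.086 against time 0 and 0.21 against 12 hours, so no direction is given for this receptor.

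Notch1 (ENSMUSG00000026923.15, chr2:26457903-26516663, − strand) had the lowest receptor mRNA per length. Its levels were 2.30, 1.84 and 2.35 CPM at time 0, 1.42, 2.82 and 1.67 CPM at 12 hours, and 1.69, 2.36 and 1.65 CPM at 24 hours. The 3 times overlapped, and the highest library and the lowest library were both of 12 hours. Its log2 fold changes were -0.13 (SE 0.22, adjusted p = 0.79) at 12 hours and -0.18 (SE 0.20, adjusted p = 0.41) at 24 hours, with a 95% interval at 24 hours of -0.61 to 0.24. The 24-hour value turned to 0.42 with the length and GC correction. From 12 to 24 hours it was -0.03 (SE 0.25, adjusted p = 0.92), and 0.57 with that correction (adjusted p = 0.047, over a range of 0.016 to 0.98), so no direction is given for Notch1. Of the exon length of Notch1, 7.5% and 2.91% are shared with 2 gene models on the opposite strand, and for Notch3 the share is 6.03%. Whether the counting used strand is not given in the sources used here.

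Per kb of exons, Notch4, a receptor that was singled out after its values were seen, exceeded the other receptors (chr17:34564268-34588503). It held 71.6% ± 0.64 (SD, n = 3) of the receptor mRNA per length at time 0, 70.4% ± 1.3 at 12 hours and 77.0% ± 0.51 at 24 hours. Notch2 held 27.4% ± 0.59 at time 0, 28.6% ± 1.2 at 12 hours and 21.7% ± 0.43 at 24 hours. Its 24-hour libraries, between 21.2% and 22.1%, lay below the 26.7% to 29.5% of the earlier times. Notch3 and Notch1 held 0.804% and 0.218% at time 0, and 1.01% and 0.326% at 24 hours. In CPM, Notch4 was at 403 ± 22.6 at time 0, 374 ± 15.5 at 12 hours and 253 ± 14.0 at 24 hours (SD, n = 3). Its log2 fold change at 24 hours was -0.67 (SE 0.05, adjusted p = 8.9e-08), but -0.11 after the length and GC correction, no longer a call.

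**Figure D2:**
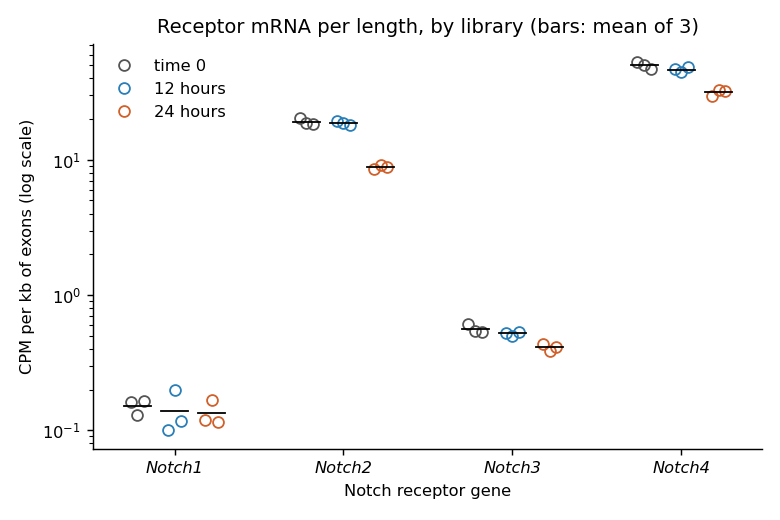
Receptor mRNA per length for each Notch receptor gene (x axis), as CPM per kb of exons on a log axis (y axis). Circles are libraries colored by time, and bars are means of 3 libraries. Notch4 and Notch2 lie more than 10-fold above Notch3, and Notch1 is the lowest, with overlapping times.

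Lfng encodes a fringe glycosyltransferase that adds sugars to the receptors and alters which ligands they respond to (ENSMUSG00000029570.5, chr5:140607320-140615545, + strand, promoter above). Its levels were 12.7, 14.1 and 14.1 CPM at time 0, 13.3, 10.9 and 11.3 CPM at 12 hours, and 4.27, 4.65 and 4.73 CPM at 24 hours. The 24-hour libraries lay well below all others, and 12-hour replicate 1 lay within the range of time 0. The log2 fold change was -0.20 at 12 hours (SE 0.09, adjusted p = 0.18). At 24 hours it was -1.58 (SE 0.10, adjusted p = 7.8e-09), or 33.4% of time 0, the lowest fold change of the 9 tested genes. From 12 to 24 hours it was -1.36 (SE 0.10, adjusted p = 7.1e-08). The 24-hour values changed little with the length and GC correction (-1.54 against time 0, -1.35 against 12 hours). The related fringe enzyme Rfng was also called lower at 24 hours, as was Poglut1, which adds glucose to Notch, whereas Pofut1, which adds fucose, was not called.

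Rbpj encodes the DNA-binding factor of the pathway (ENSMUSG00000039191.12, chr5:53466152-53657362, + strand). Its levels were 72.1, 67.9 and 68.4 CPM at time 0, 78.6, 80.7 and 82.7 CPM at 12 hours, and 82.6, 87.4 and 84.2 CPM at 24 hours. Libraries of both later times lay above all of time 0, and 12 and 24 hours overlapped at 82.6 to 82.7 CPM. The log2 fold change was 0.22 at 12 hours (SE 0.04, adjusted p = 6.0e-04) and 0.29 at 24 hours (SE 0.04, adjusted p = 6.4e-05), both short of 1.5-fold. Between 12 and 24 hours it was 0.09 (SE 0.04, adjusted p = 0.057, but 0.027 without 24-hour replicate 1 and 0.016 with the length and GC correction), and -0.13 when libraries were scaled by total counts. Total-count scaling moved the median of all genes by -0.22 in that comparison and left the 24-hour value against time 0 at 0.066 (adjusted p = 0.19, the highest of a range from 1.9e-07 over the alternatives). Rbpj has processed pseudogenes, so reads could be shared with them.

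Maml1 encodes the coactivator that joins the intracellular domain and RBPJ on DNA (ENSMUSG00000050567.16, chr11:50255634-50292311, − strand). Its levels were 78.2, 76.1 and 77.4 CPM at time 0, 85.9, 85.6 and 86.2 CPM at 12 hours, and 58.0, 75.7 and 65.3 CPM at 24 hours. The 12-hour libraries were the highest and nearly equal, and the 24-hour libraries were the lowest and the most spread. The log2 fold change was 0.16 at 12 hours (SE 0.03, adjusted p = 0.0036) and -0.22 at 24 hours (SE 0.07, adjusted p = 0.018), and from 12 to 24 hours it was -0.35 (SE 0.07, adjusted p = 5.5e-04). None of these reached 1.5-fold. The adjusted p at 12 hours was 0.21 with all 9 libraries in one fit. The 24-hour value against time 0 turned to 0.070 with the length and GC correction (adjusted p = 0.31), and its adjusted p was 0.067 without time 0 replicate 1, 0.057 without 24-hour replicate 1 and 0.063 without 24-hour replicate 3. That from 12 to 24 hours was 0.27 with the correction.

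Hes1, a basic helix-loop-helix repressor and a direct target of the pathway, was near the limit of detection (ENSMUSG00000022528.8, chr16:30064384-30067796, + strand). It had 3, 11 and 2 counts at time 0, 5, 3 and 5 at 12 hours, and 9, 16 and 17 at 24 hours, where 3 counts correspond to 0.0550 to 0.0735 CPM. The 24-hour libraries were high except replicate 1, which lay below time 0 replicate 2 in counts, at 9 against 11, and so the times overlapped. At 24 hours the log2 fold change was 1.49 (SE 0.61, 95% interval 0.16 to 2.81, adjusted p = 0.044). Hes1 passed the filter on low counts in this comparison with 3 libraries at or above the cutoff, 24-hour replicates 2 and 3 and time 0 replicate 2, and did not pass it in the other comparisons. At 24 against 12 hours the libraries did not overlap, and with no filter the log2 fold change was 1.66 (adjusted p = 0.038), while with all 9 libraries in a joint fit it was 1.65 (adjusted p = 0.022). Hes1 passed the filter in 4 of the fits that left out a library, and without 12-hour replicate 2 its adjusted p there was 0.057. At 24 against 12 hours only 24-hour replicates 2 and 3 reached the cutoff, and no 12-hour library did. Hes1 thus entered the joint fit and those that left out a library through libraries where it was high. Their adjusted p-values cannot be read apart from that choice. At 12 hours against time 0 the no-filter and joint fits gave -0.17 (adjusted p = 0.94 and 0.95). The call against time 0 was lost under 6 of 11 alternatives, among them DESeq2 (adjusted p = 0.064) and total counts (0.083), with a range of 0.015 to 0.083 over the 11, and in 4 of 6 fits that left out a library (up to 0.16). Without time 0 replicate 2 the log2 fold change was 2.60, and without time 0 replicate 3 it was 1.05.

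Hey1, a repressor of the same family (ENSMUSG00000040289.8, chr3:8663359-8667256, − strand), had 0 counts in 8 libraries and 1 count in 12-hour replicate 2. A count of 0 allows up to 3 counts, or 0.0550 to 0.0735 CPM in a library, for counting error only, and no fold change is given. A fall in Hey1, or a change within this limit, was thus not detectable at this depth, and no rise above the limit was seen.

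Ordered by mean level per kb of exons at time 0, the genes were Notch2 (19.1 CPM per kb), Maml1 (14.0), Rbpj (5.45), Lfng (5.44), Jag1 (2.20), Notch3 (0.561), Jag2 (0.198), Notch1 (0.152), Hes1 (0.0548) and Hey1 (0). Rbpj and Lfng did not differ beyond their spread, and the libraries of all other neighbors were apart. At 24 hours Maml1 was the highest (12.0 CPM per kb), followed by Notch2 (8.85), Rbpj (6.65), Lfng (1.82), Jag1 (1.07) and Notch3 (0.412). Hes1 (0.149), Jag2 (0.136) and Notch1 (0.134) overlapped.

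**Figure D3:**
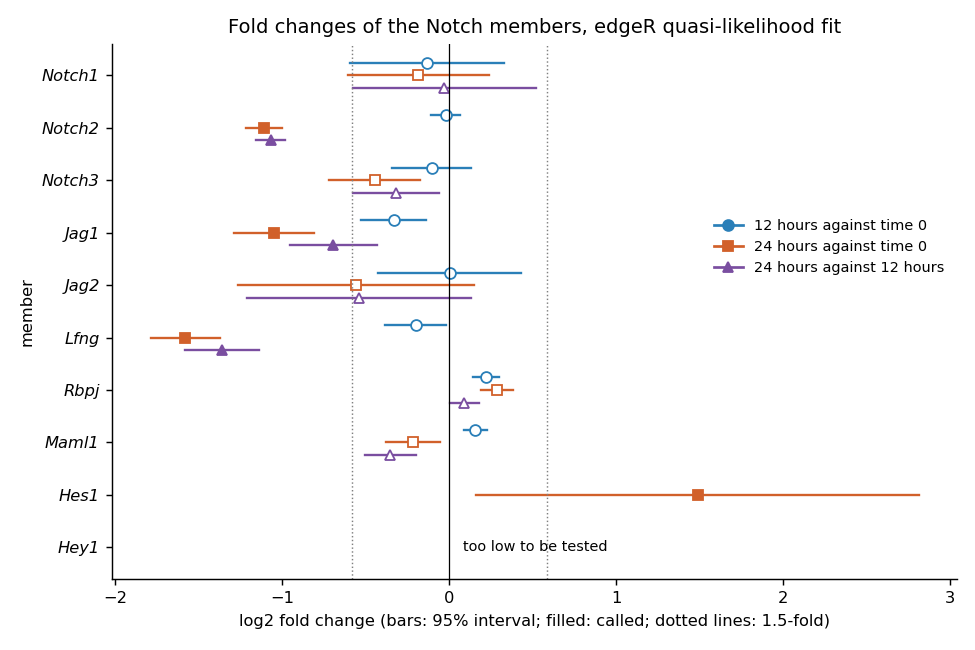
Log2 fold change of each tested Notch gene (x axis) in the 3 comparisons, with 95% intervals from edgeR as bars. Filled symbols are calls and dotted lines mark 1.5-fold. At 24 hours Notch2, Jag1 and Lfng lie to the left of the line in both comparisons, and the Hes1 interval runs from 0.16 to 2.81.

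The genes whose log2 CPM most resembled Notch2 over the 9 libraries were Igf1r (Pearson r = 1.00), Kat6a (0.999) and Zfp646 (0.999), among 10356 other genes with a mean of at least 50 counts. Those for Jag1 were Nucks1 (0.994), Plin3 (0.989) and Mtus1 (0.986). Those for Hes1 were Myo1h (0.984), Ccdc15 (0.955) and Chchd1 (0.943), which rests on the sparse counts of Hes1. The libraries share their times and scaling, so these values are a description.

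Of 59 other genes of the pathway, 53 were in the table and 47 were tested in each comparison. At 12 hours 1 was called, lower, or 2.13%, beside 1.60% called and 0.0964% lower among all tested genes. It was the Groucho corepressor Tle2, with 1.91, 2.40 and 1.63 CPM at time 0 and 1.25, 1.03 and 1.19 CPM at 12 hours (log2 fold change -0.77, SE 0.20, adjusted p = 0.019). This call was lost with all 9 libraries in one fit (adjusted p = 0.081, over a range of 0.0034 to 0.081) and in 3 of 6 fits that left out a library, namely time 0 replicate 2, 12-hour replicate 2 or 12-hour replicate 3. At 24 hours against time 0, 14 were called lower and 2 higher, so 34.0% were called and 29.8% were lower, beside 28.8% and 16.8% of all tested genes. At 24 against 12 hours 12 were called lower and 0 higher, or 25.5%, beside 25.7% called and 15.3% lower among all tested genes. Their median log2 fold changes were -0.03, -0.32 and -0.28 in the 3 comparisons. With the length and GC correction, 24 hours against time 0 gave 11 lower and 4 higher with a median of -0.11, beside 13.9% lower, 12.1% higher and a median of 0.007 over all genes, and the median of the tested Notch genes above went from -0.45 to 0.070. With total counts these other genes were split as 20 lower and 0 higher, where all tested genes were split as 3008 lower and 698 higher, with a median of -0.24.

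By role, 5 of 10 corepressors, 3 of 7 coactivators, 2 of 3 genes of receptor glycosylation and 1 of 10 genes of receptor cleavage were called lower at 24 hours against time 0, beside 16.8% of all tested genes. Spen, a corepressor at RBPJ, was at 112, 109 and 99.8 CPM at time 0 and at 34.3, 37.6 and 35.3 CPM at 24 hours. The groups were far apart, and its log2 fold change was -1.58 (SE 0.06, adjusted p = 1.0e-10), or -0.96 with the length and GC correction. Tle2 was lower as well (-1.47, SE 0.29, adjusted p = 4.7e-04), and Tle3 and Tle4 were also called.

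Among the coactivators, Maml3, a relative of Maml1 (-1.23, SE 0.07, adjusted p = 6.5e-09), and the acetyltransferases Ep300 (-1.23, SE 0.05, adjusted p = 2.2e-10) and Crebbp were called lower, while Maml1 was not. Ep300 was at 130, 134 and 125 CPM at time 0 and at 58.4, 53.5 and 54.2 CPM at 24 hours. Psen2, a catalytic subunit of γ-secretase, was the 1 cleavage gene called, and the metalloprotease genes Adam10 and Adam17 were not.

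Fbxw7, the substrate-binding part of a ubiquitin ligase that marks the Notch intracellular domain for degradation, had the lowest fold change of the other pathway genes (-1.95, SE 0.05, adjusted p = 6.9e-12). It was at 64.7, 63.8 and 65.0 CPM at time 0, 67.5, 64.8 and 59.3 CPM at 12 hours, and 16.9, 16.2 and 17.1 CPM at 24 hours. The 24-hour libraries stood at 25.9% of time 0, with no overlap. Mib1, a ligase that drives ligand endocytosis, was called lower, and Neurl1a, another such ligase, was higher (0.60, SE 0.12, adjusted p = 6.0e-04). Neurl1a fell short of 1.5-fold with total counts (0.38), without time 0 replicate 3 (0.50) and without 24-hour replicate 3 (0.52), and was larger with the length and GC correction (1.14).

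Among other targets, 3 of 8 were tested. Nrarp, a target that feeds back on the pathway, was called higher at 24 hours (1.09, SE 0.41, adjusted p = 0.028). It had 21, 10 and 9 counts at time 0, 34, 11 and 25 at 12 hours, and 19, 29 and 31 at 24 hours. In CPM the 24-hour libraries lay above time 0, at 0.466 and more against 0.436 and less, and 12 hours overlapped both. An antisense gene covers 79.4% of its exon length, so without strand its reads cannot be told apart from those of that gene, and the call was lost under 3 of 11 alternatives and 4 of 6 fits that left out a library. Hes6 and Hes7 were not called. Hes3, Hey2, Dner, Dtx1, Dll3 and Dll4 had at most 4 counts in a library, and Hes2, Hes5, Heyl, Dlk1, Mfng and Dll1 were not analysed here.

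**Figure D4:**
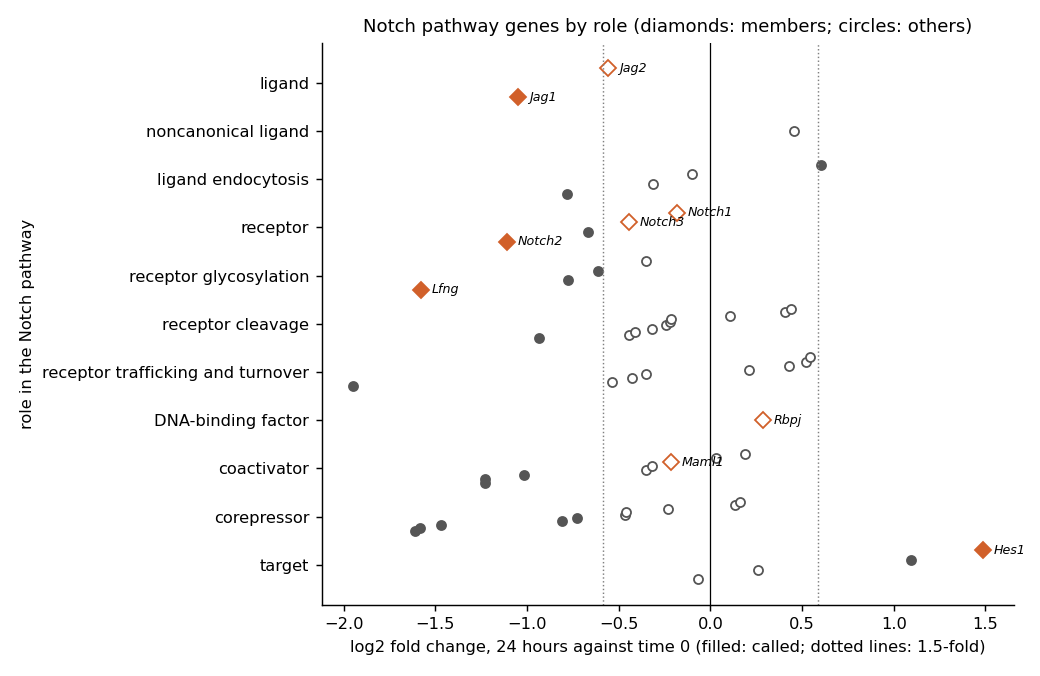
Log2 fold change at 24 hours against time 0 (x axis) of the tested Notch pathway genes, grouped by role (y axis). Diamonds are the 9 tested Notch genes described first and circles the 47 other genes, filled where called, and dotted lines mark 1.5-fold. Corepressors and coactivators hold 8 of the 14 lower calls and 17 of the 47 genes among the circles. Both target genes called, Hes1 and Nrarp, rest on low counts and lost the call under several alternatives.

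From 12 to 24 hours the other genes called lower included Fbxw7 (-1.92), Spen (-1.49), Ep300 (-1.19), Maml3 (-1.16) and Crebbp (-0.96), and also Tle3, Psen2, Mib1, Poglut1, Dtx4 and Maml2. For Crebbp the call was lost with the length and GC correction (-0.56).

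**Figure D5:**
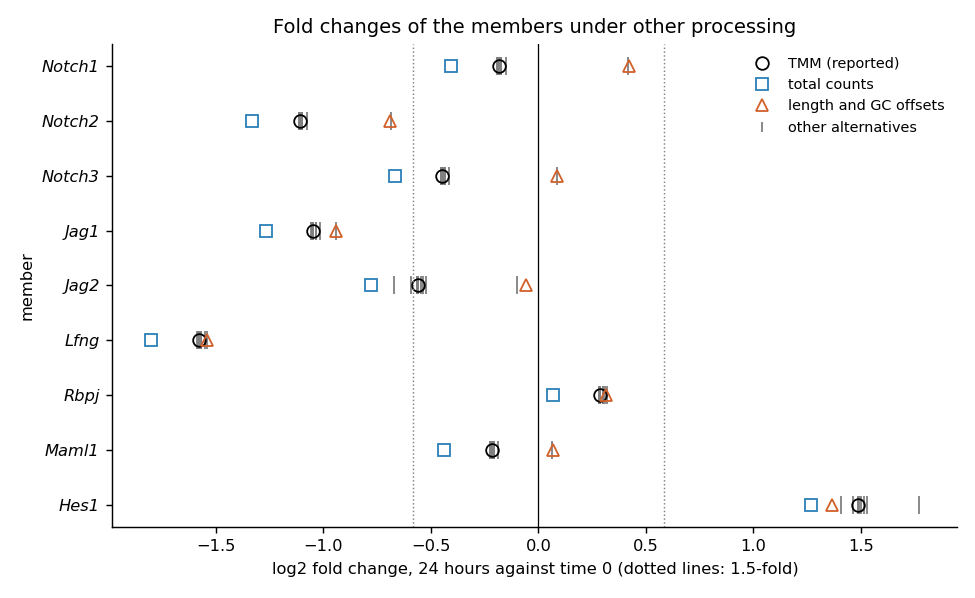
Log2 fold change at 24 hours against time 0 (x axis) of each tested Notch gene (y axis) as reported, with total counts, with the length and GC correction and under the other alternatives, without the fits that left out a library. Notch2, Jag1 and Lfng stay to the left of the 1.5-fold line, and Notch1, Notch3 and Maml1 cross 0 with the length and GC correction.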

How the data were processed

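RNA-Seq of MyC-CaP cells was analyzed in 9 libraries. The authors trimmed reads with Cutadapt, aligned them with STAR to GRCm38.p6 with GENCODE vM24 and assigned them to genes with featureCounts. The deposited table holds raw counts for 15384 genes, not normalized, from 41881191 to 52993821 counts per library. The limit that a count of 0 allows covers counting error only, and intervals of log2 fold changes come from the spread between libraries in the edgeR fit.

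In R 4.3.3, genes were filtered with filterByExpr, scaled by TMM and tested with edgeR 4.0.16 (quasi-likelihood), without a block. The 12 alternatives, beside leaving out each library, were DESeq2 1.42.0, RLE, upper-quartile and total-count scaling, no filter, a minimum of 10 counts per library, a joint fit of all 9 libraries, the replicate block, limma-voom (limma 3.58.1), adjusted p alone, and loess offsets for gene length and GC content (span 0.3) without and with the block. Exon lengths and GC content came from GENCODE M21, which held 99.93% of the genes. Calculations were tested on simulated data.

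The Notch genes and lists were chosen with earlier results of these data known. The text names all 10 Notch genes, the other pathway genes called in a comparison (with values for at most the 6 highest and 6 lowest), those at or below 3 counts, and the 3 genes most like Notch2, Jag1 and Hes1. Some genes of the pathway and marker lists are counted but not reported here by name.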

Additional observations from a re-analysis of the deposited data

Results flagged for a closer look

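For the Notch and pathway genes that follow, the change at 24 hours differed from the change at 12 hours, both against time 0, by a test of the difference itself, which is the comparison of 24 with 12 hours (edgeR's quasi-likelihood test, adjusted p-values as in the report). The differences in log2 fold change were -1.07 for Notch2, -0.69 for Jag1, -1.36 for Lfng, -1.92 for Fbxw7, -1.16 for Maml3, -1.19 for Ep300, -0.96 for Crebbp and -1.49 for Spen. In each of these genes, every 24-hour library lay below every 12-hour library. These genes were taken from those called in that comparison, so this separation adds no support. Of all 11394 tested genes, 25.7% were called there, and the libraries did not overlap for 73.8%. ASPN and the hours in culture cannot be told apart in these differences, and the other pathway genes called in that comparison are named in the report. With the length and GC correction the values for Jag1 (-0.58) and Crebbp (-0.56) fell short of 1.5-fold.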

How the results depend on the processing

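Notch2, Jag1 and Lfng at 24 hours against time 0, and Notch2 and Lfng against 12 hours, kept their calls in all 12 alternatives and all 6 fits that left out a library. By adjusted p alone, the Notch genes called numbered 3 at 12 hours, 7 at 24 hours and 5 at 24 against 12 hours, and the other pathway genes 5, 41 and 38, where 10.3%, 70.9% and 71.3% of all tested genes were called. With all 9 libraries in one fit 0 other genes were called at 12 hours, and with total counts 20 were called at 24 against 12 hours, where 12 were reported. With total counts the Notch genes called at 24 hours were 5, all lower, where 26.3% of all tested genes were lower and 6.1% higher, and with the length and GC offsets 3, all lower, where 13.9% were lower and 12.1% higher. Leaving out libraries gave 0 to 0, 3 to 5 and 2 to 5 calls among the Notch genes, and 0 to 1, 14 to 17 and 11 to 13 among the others. Over these fits, 1.29% to 1.72%, 28.1% to 28.7% and 25% to 26.1% of all tested genes were called in the 3 comparisons. At 24 against 12 hours the lowest count of Notch genes, 2, came without 24-hour replicate 2, and the highest count in both 24-hour comparisons, 5, came without 24-hour replicate 1. Both counts of 5 included the higher call of Hes1, which at 24 against 12 hours passed the filter through 24-hour libraries alone.

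The sign turned with the length and GC offsets at 24 hours against time 0 for Notch1 (0.42), Notch3 (0.086) and Maml1 (0.070), and together with the block (0.42, 0.088 and 0.065). At 24 against 12 hours it turned for Notch1 (0.57, adjusted p = 0.047), Notch3 (0.21) and Notch4 (0.015), and with the block (0.59, adjusted p = 0.016, then 0.21 and 0.015), where Notch1 passed both thresholds and was called higher, and the adjusted p of Notch1 ranged from 0.016 to 0.98 over the alternatives. It also turned there for Rbpj with total counts (-0.13) and for Notch1 with limma-voom (0.015). At 12 hours it turned for Jag2 with upper-quartile factors (-0.012), total counts (-0.019) and all 9 libraries (-0.0019). In fits that left out a library, the signs of Jag2 (-0.091 to 0.18), Notch1 (-0.49 to 0.055) and Notch2 (-0.050 to 0.032) turned at 12 hours, and that of Notch1 (-0.22 to 0.32) at 24 against 12 hours. Before the correction, log2 fold changes at 24 hours correlated across genes with length (Spearman -0.15) and GC content (-0.16). Which value lies closer to the change in the cells was not tested.

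The replicate numbers of the labels were shared by the times, but deviations of same-numbered libraries correlated at -0.10 to 0.06, so the numbers were not taken to pair the samples, and in 1 of 9 same-numbered pairs the library correlated best with its own number. With the replicate block 0, 3 and 3 Notch genes and 1, 15 and 13 other genes were called in the 3 comparisons. Of all tested genes 1.51%, 28.4% and 25.7% were called with the block. The call of Hes1 (adjusted p = 0.059) and that of Nrarp (0.054) were lost with it. Among the Notch genes, low counts limit the precision for Hes1, Hey1 and Jag2, which had 0 to 80 counts in a library.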
